A study of Mus musculus with 8 samples.

Results

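The proteasome is described here by its subcomplexes, from RNA levels in NG4 mouse embryonic stem cells after siRNA knockdown. Genes were chosen by name: every symbol of the Psma to Psmg series followed by a number, together with Adrm1, Uchl5 and Pomp. This took 51 of the 18193 genes that had a probe set with a single symbol. Of the 51, 49 are subunits, activators, inhibitors or assembly chaperones, and 2 (Psmc3ip and Psme3ip1) carry the name but are not subunits and were kept apart. The 49 fell into 15 genes of the 20S core, 10 of the 19S base, 8 of the 19S lid, 4 immunosubunits, 4 activators or inhibitors and 8 assembly chaperones. Adrm1, and Psme2, whose probe set also carries another symbol, were not analysed here.

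The cells were reverse transfected with siRNA and collected after 48 h. The groups were siPsmd14, siDdb1, siSox2 and the non-targeting control siNonTarget, with 2 Affymetrix arrays in each, 8 in all, every array starting from 5 ng of total RNA. The groups shared the cell line, the transfection and the collection time. The labels do not say whether the 2 arrays of a group came from separate cultures, so the p-values cover only array-to-array spread that could be technical. The labels give neither the sequence nor the number of siRNAs per target.

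As background, the proteasome degrades proteins tagged with ubiquitin. A barrel of alpha and beta rings, the 20S core, holds the cutting sites, and a 19S cap recognises ubiquitin, removes it and unfolds the substrate with a ring of ATPases. Psmd14, the target of 1 of the siRNAs, is the lid's metalloprotease that cuts ubiquitin chains off the substrate before it enters the core. In mammalian cells a shortage of proteasome activity is known to raise transcription of the subunit genes through the factor Nfe2l1. Ddb1 is an adaptor of a cullin ubiquitin ligase, and Sox2 is a pluripotency transcription factor.

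No proteasome gene passed the threshold in siPsmd14, siDdb1 or siSox2 against siNonTarget. In siPsmd14 most genes of the 20S core and the 19S cap nevertheless lay above siNonTarget by a small amount, with medians of 0.32 for the core, 0.43 for the base and 0.16 for the lid on the log2 scale. Assembly chaperones and immunosubunits had medians of -0.14 each, and activators and inhibitors 0.06. The median over all 18193 genes was -0.01. Levels are log2 of the deposited intensity, fold changes are differences of group means of 2 arrays each, and a gene was read from its brightest probe set. Passing means an adjusted p under 0.05 in limma with Benjamini-Hochberg adjustment over all 45037 probe sets. At that threshold 1.35% of all probe sets passed in siPsmd14, 0.0266% in siDdb1 and 2.93% in siSox2.

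At an unadjusted p under 0.05, 16 of the 49 genes were higher and 5 lower in siPsmd14 than in siNonTarget. The shares over all genes were 9.05% higher and 8.07% lower, and over all probe sets 6.82% and 7.68%. Of the 16, 15 belonged to the 20S core or the 19S cap, where 28 of 33 genes lay above 0 and 1 gene was lower at the unadjusted threshold. Over all genes, 47.4% lay above 0. The core and cap genes are among the brightest on these arrays, and the 1801 genes in the same range of mean level (10.29 to 12.94, Psma8 lying below it) had a median fold change of -0.05, with 41.6% above 0 and 8.22% higher at the unadjusted threshold. An F test for any difference among the 4 groups called 0 of the 51 genes after adjustment, against 3.96% of probe sets and 5.77% of genes. Before adjustment it took 17 of 51 (33.3%), against 18.3% of probe sets and 23.3% of genes.

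**Figure D1:**
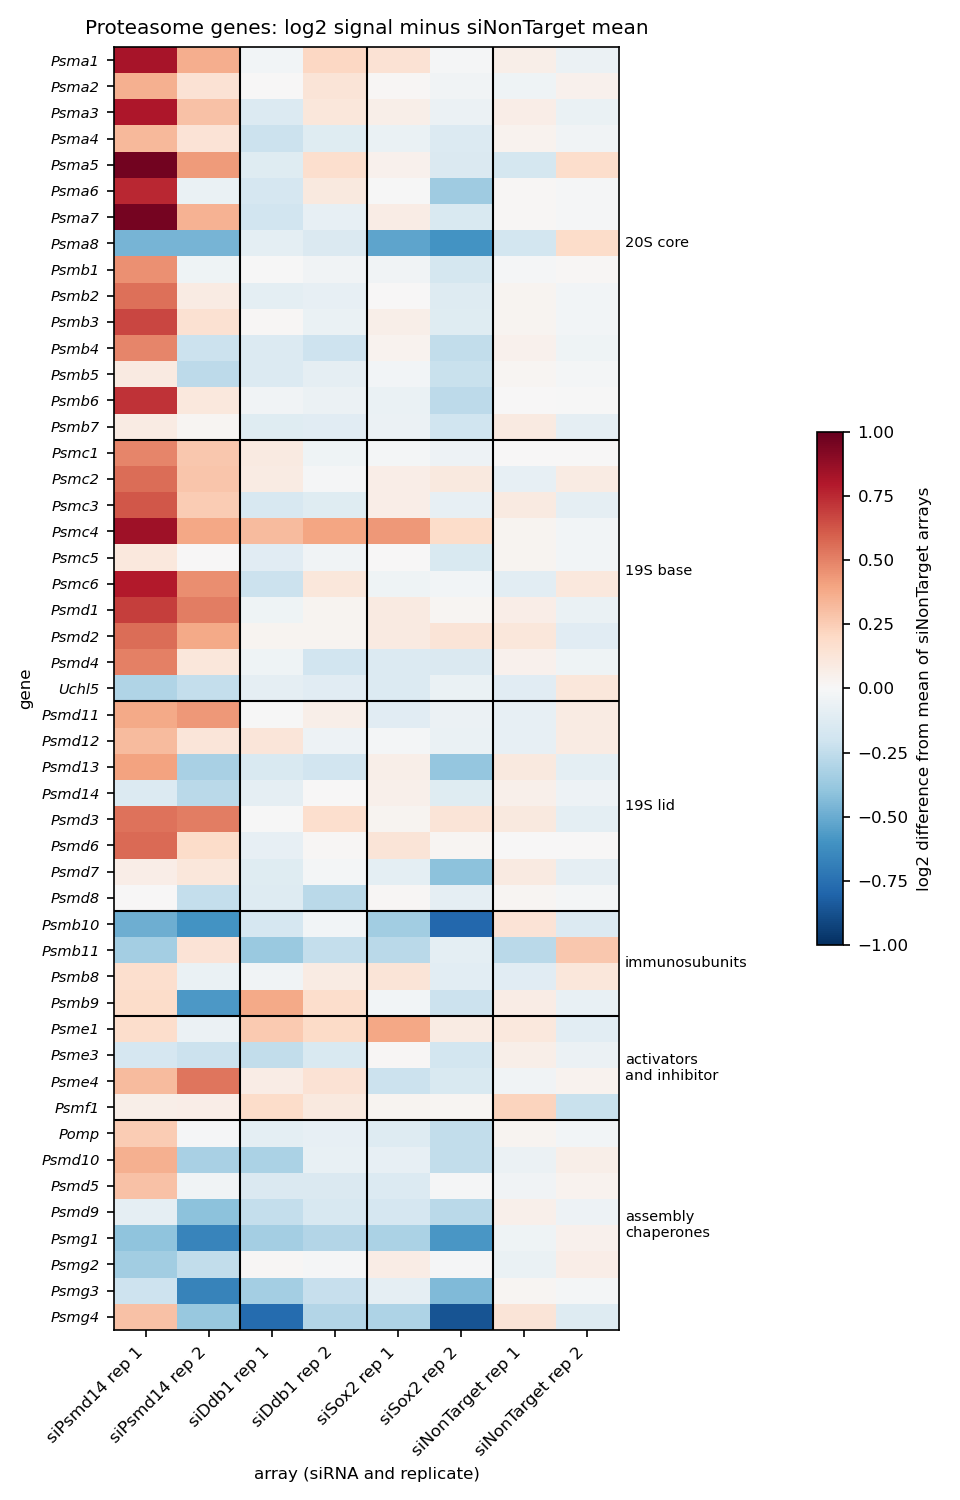
Log2 level of each of the 49 proteasome genes (rows, grouped by subcomplex) on each of the 8 arrays (columns) minus the gene's mean over the 2 siNonTarget arrays; red is higher and blue lower. Most core and 19S rows are red on siPsmd14 replicate 1 and paler on replicate 2, while siDdb1 and siSox2 columns stay near 0 in these rows and several chaperone rows are blue in all 3 knockdowns.

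The targeted gene came first as a check of the labels. Psmd14 read 11.88 and 11.75 in siPsmd14, 11.93 and 12.02 in siDdb1, 12.07 and 11.90 in siSox2, and 12.07 and 11.97 in siNonTarget. The siPsmd14 arrays were the lowest of the 8 and did not overlap any other group, but the gap was small. The fold change against siNonTarget was -0.21 (SE 0.13, adjusted p = 0.522), with a 95% interval of -0.50 to 0.08. That is 0.866 of the control level by the only probe set of the gene used here, and where it lies relative to the siRNA site is not stated. A loss of Psmd14 RNA was therefore not detectable in the libraries labelled siPsmd14. Psmd14 was the lowest of the 8 lid genes in that comparison. Sox2, the target in siSox2, read 12.10 and 11.84 in siSox2, against 12.23 and 12.47 in siNonTarget, a fold change of -0.38 (adjusted p = 0.301) that did not pass either. The level of Ddb1, the target in siDdb1, is not reported here.

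Among the 8 alpha subunits, which form the outer rings and the gate of the 20S core, the median in siPsmd14 was 0.45, and 7 of 8 lay above 0. Psma5 read 12.89 and 12.35 in siPsmd14, 11.80 and 12.09 in siDdb1, 11.97 and 11.78 in siSox2, and 11.75 and 12.10 in siNonTarget. Both siPsmd14 arrays were above all 6 others, the first by much more, and the fold change was 0.69 (SE 0.21, adjusted p = 0.157), the highest of the core. Psma7 (0.65), Psma1 (0.60) and Psma3 (0.55) followed, all without passing. The exception was Psma8, the alpha subunit of the testis form of the core. It read 9.11 and 9.11 in siPsmd14, 9.48 and 9.43 in siDdb1, 9.05 and 8.98 in siSox2, and 9.39 and 9.76 in siNonTarget. Its fold change was -0.46 in siPsmd14 (adjusted p = 0.178) and -0.56 in siSox2 (adjusted p = 0.0847). In siPsmd14 Psma8 stood on the other side of 0 from the 7 somatic alpha genes, while in siSox2 6 of the 8 alpha genes lay below 0. Psma8 was also the dimmest core gene, at the 80.5th percentile of genes by mean level, while the other 14 lay between the 96.1th and the 99.2th.

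The 7 constitutive beta subunits, which build the inner rings and carry the catalytic sites, had a lower median of 0.20, with 6 of 7 above 0. That value rested on replicate 1: the beta median was 0.483 on siPsmd14 replicate 1 and 0.019 on replicate 2, against 0.026 and -0.026 on the siNonTarget arrays. On replicate 2 Psmb1, Psmb4 and Psmb5 lay below the control mean by the brightest probe set of each, while the other probe set of Psmb4 read 11.69 there, against a siNonTarget mean of 11.60. Psmb3, a non-catalytic subunit, and Psmb6, which carries the caspase-like site, both stood at 0.41. Psmb5, which holds the chymotrypsin-like site, was the lowest at -0.08 (95% interval -0.42 to 0.26). Psmb7, which holds the trypsin-like site, was at 0.05. The difference in median between alpha and beta genes was not tested. Of the 15 core genes, 5 were higher at the unadjusted threshold (Psma1, Psma3, Psma5, Psma7 and Psmb3) and Psma8 was lower.

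The 19S base holds the 6 ATPases, Psmc1 to Psmc6, and large scaffold and ubiquitin-binding subunits. All 6 ATPase genes lay above 0 in siPsmd14, with a median of 0.43, and 5 of them were higher at the unadjusted threshold. Psmc6 read 12.39 and 12.06 in siPsmd14, 11.38 and 11.71 in siDdb1, 11.55 and 11.57 in siSox2, and 11.49 and 11.70 in siNonTarget. The siPsmd14 arrays lay above the 6 others, and the fold change was 0.63 (SE 0.17, adjusted p = 0.116). Psmc4 read 12.25 and 11.79 in siPsmd14, 11.72 and 11.80 in siDdb1, 11.84 and 11.59 in siSox2, and 11.43 and 11.38 in siNonTarget. Here the siNonTarget arrays were the lowest of all, and the fold change was 0.62 in siPsmd14 (adjusted p = 0.128), 0.36 in siDdb1 and 0.31 in siSox2. Psmc5 was the ATPase gene nearest to the control, at 0.06.

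Psmd1, one of the scaffold subunits that hold the base together, had the smallest p of all members in siPsmd14 against siNonTarget. It read 12.35 and 12.17 in siPsmd14, 11.62 and 11.69 in siDdb1, 11.75 and 11.68 in siSox2, and 11.73 and 11.59 in siNonTarget. Both siPsmd14 arrays were clear of a narrow band formed by the other 6. The fold change was 0.60 (SE 0.13, 95% interval 0.31 to 0.89), which is 1.52-fold, with an adjusted p of 0.0649. That call changed with the processing: the adjusted p was 0.0246 with a mean-dependent robust prior and 0.0380 when all probe sets of a gene were averaged, and it ranged from 0.0246 to 0.322 over the alternatives. Psmd2, the other large scaffold, was at 0.46 (adjusted p = 0.139).

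Uchl5, a deubiquitinase that docks on the base through Adrm1, did not share the shift. It read 11.15 and 11.21 in siPsmd14, 11.36 and 11.34 in siDdb1, 11.31 and 11.38 in siSox2, and 11.34 and 11.56 in siNonTarget. The siPsmd14 arrays were the lowest of the 8, and the fold change was -0.26 (SE 0.13, adjusted p = 0.385). It was the only 1 of the 10 base genes below 0.

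In the lid, the part of the cap that carries Psmd14, the median of the other 7 genes was 0.22 in siPsmd14, with 6 of 7 above 0. Psmd3, a structural subunit of the lid, read 11.00 and 10.97 in siPsmd14, 10.45 and 10.62 in siDdb1, 10.48 and 10.58 in siSox2, and 10.55 and 10.36 in siNonTarget. Its 2 siPsmd14 arrays agreed within 0.03 and lay above the 6 others, and the fold change was 0.53 (SE 0.13, adjusted p = 0.0982). Psmd11, a lid scaffold, was likewise almost equal on both siPsmd14 arrays, at 12.66 and 12.72, against 12.28 and 12.34 in siDdb1, 12.17 and 12.23 in siSox2, and 12.20 and 12.37 in siNonTarget. Its fold change was 0.40 (SE 0.12, adjusted p = 0.165). Psmd7, the direct partner of Psmd14 in the lid, was at 0.09, and Psmd8 at -0.12.

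Psme4 encodes an alternative cap of the core. By the brightest probe set of each gene, it gave the only call among the 51 in any of the 6 pairwise comparisons. It read 11.92 and 12.14 in siPsmd14, 11.68 and 11.75 in siDdb1, 11.39 and 11.45 in siSox2, and 11.57 and 11.64 in siNonTarget. The groups did not overlap, with siPsmd14 highest and siSox2 lowest. In siPsmd14 it rose against siSox2 by 0.61 (SE 0.13, 95% interval 0.32 to 0.90, adjusted p = 0.0417), a comparison in which 2.79% of probe sets passed. Against siNonTarget it was at 0.43 (adjusted p = 0.158) and against siDdb1 at 0.31 (adjusted p = 0.413). The call against siSox2 was lost when any 1 of the 8 arrays was left out, with adjusted p between 0.0612 and 0.186, and with only the arrays of both groups in the fit (0.129).

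The other activator genes did not follow Psme4. Psme3, which encodes the nuclear activator, read 9.06 and 9.01 in siPsmd14, against 9.28 and 9.17 in siNonTarget, a fold change of -0.19 (adjusted p = 0.573). Psme1, a subunit of the interferon-inducible activator, was at 0.06 in siPsmd14 and at 0.23 in both siDdb1 and siSox2. Psmf1, an inhibitor of the core in vitro, read 8.60 and 8.61 in siPsmd14, against 8.76 and 8.32 in siNonTarget, a fold change of 0.06 (adjusted p = 0.905). The siPsmd14 values of Psmf1 lay between the control arrays.

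The immunosubunits replace catalytic beta subunits in immune cells and after interferon. Psmb8 and Psmb9 were dim in every group, with means over the 8 arrays of 4.26 and 5.35, against array medians of 4.78 to 4.85 over all probe sets. The thymus subunit Psmb11 was lower still, at 3.17. Psmb8 was at 0.05 and Psmb9 at -0.19 in siPsmd14 against siNonTarget, and neither passed (adjusted p = 0.927 and 0.777). Psmb10 was the only immunosubunit well above the array medians. It read 8.98 and 8.87 in siPsmd14, 9.30 and 9.44 in siDdb1, 9.12 and 8.68 in siSox2, and 9.60 and 9.33 in siNonTarget. The siPsmd14 and siSox2 arrays lay below all siDdb1 and siNonTarget arrays. Its fold change was -0.54 in siPsmd14 (SE 0.17, 95% interval -0.92 to -0.15, adjusted p = 0.18) and -0.57 in siSox2 (adjusted p = 0.136), the lowest of all members in siPsmd14.

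Assembly chaperones guide the building of the rings and leave or are degraded as the particle matures. Of 8 genes, 3 lay above 0 and 5 below in siPsmd14, and 3 were lower at the unadjusted threshold. Psmg1, which pairs with Psmg2 in a chaperone that starts the alpha ring, read 11.09 and 10.83 in siPsmd14, 11.15 and 11.20 in siDdb1, 11.17 and 10.91 in siSox2, and 11.45 and 11.53 in siNonTarget. All 6 knockdown arrays were below both controls. The fold change was -0.53 in siPsmd14 (SE 0.14, 95% interval -0.86 to -0.21, adjusted p = 0.126), -0.45 in siSox2 (adjusted p = 0.16) and -0.32 in siDdb1 (adjusted p = 0.632). These 3 values share the control arrays. Psmg2 was at -0.29 in siPsmd14 and close to 0 in siDdb1 (0.00) and siSox2 (0.03).

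Psmg3 and Psmg4 form the second chaperone pair of the alpha ring. Psmg3 was at -0.44 in siPsmd14 and -0.29 in siDdb1. Psmg4 read 9.25 and 8.58 in siPsmd14, 8.19 and 8.67 in siDdb1, 8.65 and 8.10 in siSox2, and 9.09 and 8.83 in siNonTarget. The 2 arrays of each knockdown differed by about as much as the groups did, and the SE of 0.27 was the largest among the members. Its fold change was -0.04 in siPsmd14, -0.53 in siDdb1 and -0.58 in siSox2. Pomp, the maturation factor that is degraded as the first substrate of the new core, read 11.98 and 11.72 in siPsmd14, against 11.76 and 11.70 in siNonTarget, a fold change of 0.12 (adjusted p = 0.758). Psmd5, a chaperone of the base, was the highest of the chaperones at 0.13 and overlapped the controls.

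**Figure D2:**
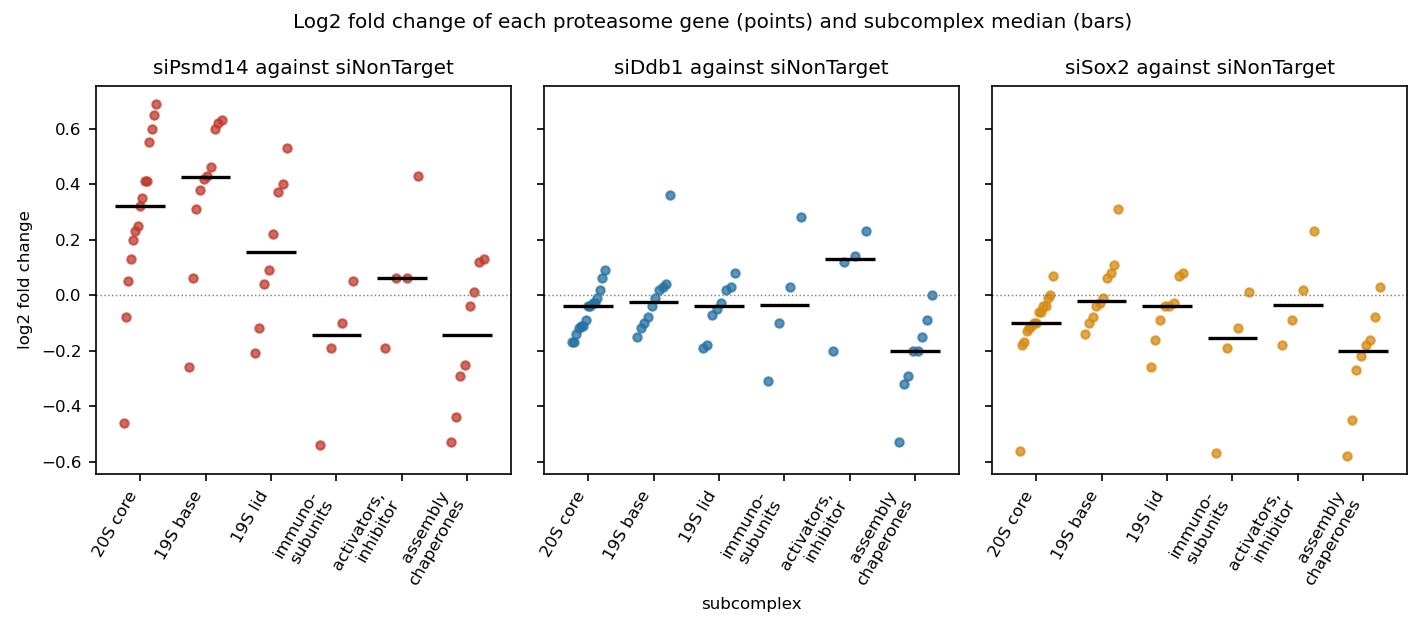
Log2 fold change against siNonTarget of each proteasome gene (points; 2 arrays a group) by subcomplex, with the subcomplex median as a bar, for siPsmd14, siDdb1 and siSox2. In siPsmd14 the core, base and lid medians stand at 0.32, 0.43 and 0.16, while those of siDdb1 and siSox2 lie between -0.10 and -0.02.

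The size of the shift differed between the 2 siPsmd14 arrays. On replicate 1 the median difference from the siNonTarget mean was 0.548 in the core, 0.553 in the base and 0.350 in the lid, and on replicate 2 it was 0.106, 0.275 and 0.116. The siDdb1 and siSox2 arrays lay between -0.150 and 0.038 for these subcomplexes. Both siPsmd14 arrays were thus above every other array in all 3 subcomplexes, by a narrow margin in the core and the lid on replicate 2. The chaperone median was 0.082 on replicate 1 and -0.353 on replicate 2. Genes of similar brightness had medians of -0.055 and -0.036 on the 2 siPsmd14 arrays. Without replicate 1 the core median was 0.11 and 7 genes were higher at the unadjusted threshold, and without replicate 2 these were 0.55 and 22.

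**Figure D3:**
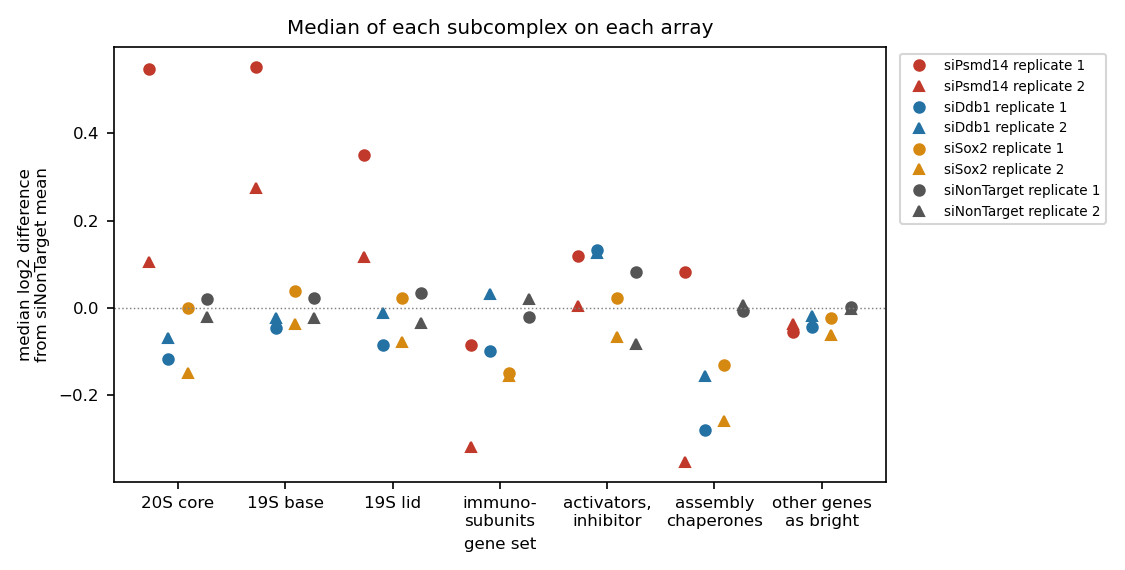
Median log2 difference from the siNonTarget mean of each subcomplex, and of the 1801 genes as bright as the core and 19S genes, on each array (circles replicate 1, triangles replicate 2). In the core the siPsmd14 arrays stand at 0.548 and 0.106, and the genes as bright lie between -0.063 and 0.003 on all 8 arrays. These 1801 genes include the core and 19S genes themselves, apart from Psma8.

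These arrays also differed in other ways. The difference between the 3′ and 5′ probe sets of Actb, a sign of RNA integrity and amplification, was 0.346 on siPsmd14 replicate 1 and between 0.096 and 0.214 on the other 7. An 18S rRNA control probe set read 10.42 and 12.51 in siPsmd14, 11.28 and 12.05 in siDdb1, 10.76 and 11.40 in siSox2, and 10.85 and 11.25 in siNonTarget. In every group replicate 2 was the higher. Among 10 embryonic stem cell markers, all 10 lay below siNonTarget in siPsmd14, where 47.4% of all genes lay above 0. The markers had a median of -0.38 and none passed the threshold. Their mean log2 level was 11.93 and 12.12 in siPsmd14, 12.14 and 12.16 in siDdb1, 12.04 and 11.97 in siSox2, and 12.28 and 12.45 in siNonTarget. Of 6 trophoblast markers, 3 rose in siPsmd14 (Krt7, Krt8 and Krt18) and 6 in siSox2, where 1.89% and 4.28% of all genes passed. Their mean levels were 8.35 and 8.14 in siPsmd14, 7.59 and 7.27 in siDdb1, 10.19 and 10.83 in siSox2, and 6.89 and 6.70 in siNonTarget. The 7 fibroblast and 4 leukocyte markers averaged 4.15 to 4.36 and 4.66 to 5.25 on every array, with none past the threshold in siPsmd14 against siNonTarget. The part of these values in the proteasome shift was not tested, and in bulk RNA fewer cells of a type and less RNA per cell cannot be told apart.

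Other probe sets of the same genes were read to see whether the shift depended on the brightest one. Of 103 probe sets of the 49 genes, 79 lay above 0 in siPsmd14, against 45.9% of all probe sets. Of the 103, 4 passed (3.88%), all of them higher, against 1.35% of all probe sets. The count that passed rests on single arrays: it was 0 without siPsmd14 replicate 1 or either siNonTarget array, and 14 without siPsmd14 replicate 2. The brightest of the 4 were a second probe set of Psme4 and one of Psmc6.

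The second Psme4 probe set read 11.55 and 11.60 in siPsmd14, 11.05 and 11.11 in siDdb1, 10.79 and 10.89 in siSox2, and 10.94 and 10.94 in siNonTarget. Both siPsmd14 arrays were above the rest, and by this probe set Psme4 rose by 0.63 (adjusted p = 0.0418). The Psmc6 probe set read 10.80 and 10.20 in siPsmd14, 9.36 and 9.72 in siDdb1, 9.49 and 9.40 in siSox2, and 9.40 and 9.32 in siNonTarget. Again the siPsmd14 arrays did not overlap any other, and by this probe set Psmc6 rose by 1.14 (adjusted p = 0.0357), more than the 0.63 of its brightest probe set. Its suffix marks probes shared by several transcripts, so the signal of a close copy is not separated. The brightest probe sets of Psme4 and Psmd11, read above, carry the same suffix and the same limit. The remaining 2 called probe sets belonged to Psma1 (0.99, adjusted p = 0.0204) and Psme4 (0.88, adjusted p = 0.0451), and both lay below the array medians on every array. This Psma1 probe set carries another suffix, for probes that may also match other sequences. The brightest probe sets of Psmc2 and Psma6 carry it as well.

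Probe sets of 1 gene did not always have the same sign. For Psmc4 the second probe set was at 0.30 in siPsmd14, -0.12 in siDdb1 and -0.11 in siSox2, so the positive values of siDdb1 and siSox2 appeared in 1 of its 2 probe sets. For Psmd11, 8 probe sets ranged from -0.15 to 0.52 in siPsmd14. Its 4 bright ones, at 10 or more in every siPsmd14 array, were all positive, from 0.31 to 0.52. For Psmg2, 2 probe sets were negative (-0.29 and -0.14) and a dim one was at 0.16. For Psma1 in siSox2, 3 probe sets were between 0.07 and 0.35 and the remaining one was at -0.10.

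**Figure D4:**
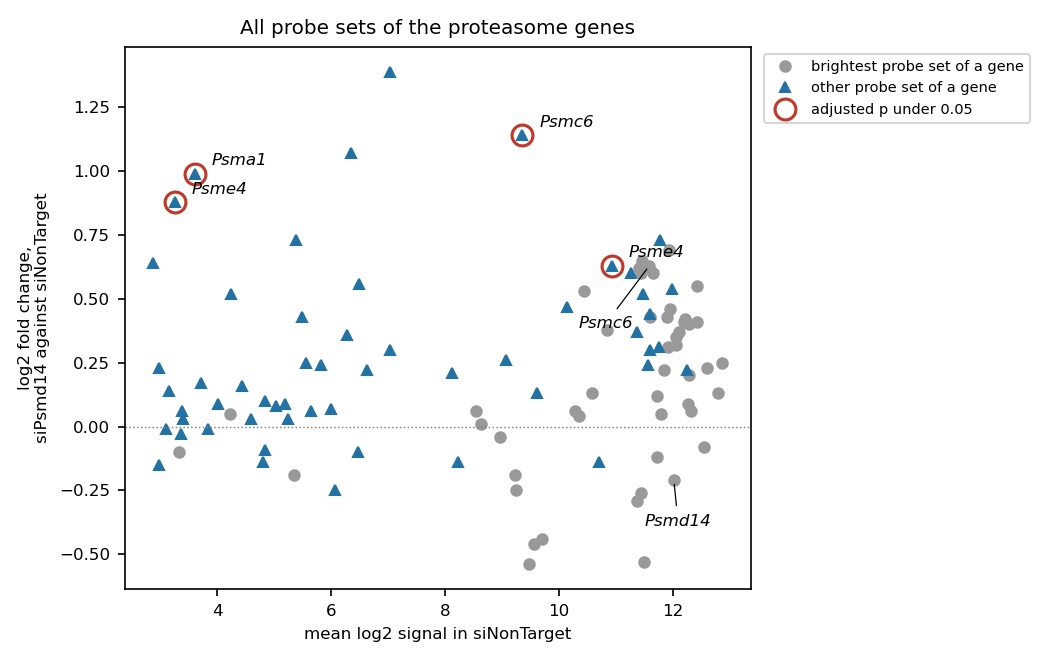
Log2 fold change in siPsmd14 against siNonTarget (vertical axis) and mean log2 level in siNonTarget (horizontal axis) for all 103 probe sets of the 49 genes; circles are the brightest probe set of a gene, triangles the others, and rings mark adjusted p under 0.05. The 4 ringed points are non-brightest probe sets of Psmc6, Psma1 and Psme4 at fold changes of 0.63 to 1.14, and Psmd14 lies at -0.21.

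In siDdb1 the medians against siNonTarget were -0.04 for the core, -0.03 for the base and -0.04 for the lid, and 0 of the 49 genes passed even the unadjusted threshold, against 5.85% of all genes higher and 4.01% lower. Chaperones had a median of -0.20. In siSox2 the medians were -0.10, -0.02 and -0.04, with -0.20 for the chaperones. Of the 49, 3 were lower at the unadjusted threshold (Psma8, Psmb10 and Psmg1) and 0 higher, against 8.93% and 10.2% of all genes. Among the 6 members with the smallest p in siSox2 was also Psmd7, at -0.26 (adjusted p = 0.469).

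Set directly against the other knockdowns, siPsmd14 gave a median over the 49 genes of 0.30 against siSox2, with 39 above 0 (52.7% of all genes). Against siDdb1 the median was 0.23, with 38 above 0 (49.6% of all genes). At the unadjusted threshold 20 were higher and 1 lower against siSox2 (9.54% and 9.99% of all genes), and 19 higher and 3 lower against siDdb1 (6.49% and 5.86%). By the brightest probe sets, Psme4 was the 1 call against siSox2 after adjustment, and there was 0 against siDdb1, where 0.413% of probe sets passed. Other probe sets of members also passed against siSox2, where 2.79% of all probe sets did. They included Psmd11 at 0.82 (adjusted p = 0.0137) and 0.65 (adjusted p = 0.0242), and Psmc6 at 1.06 (adjusted p = 0.0294). How these calls change with the processing was not read. Psmd1 again had one of the smallest p-values, at 0.54 against siSox2 (adjusted p = 0.0635) and 0.61 against siDdb1 (adjusted p = 0.105). These comparisons share the siPsmd14 arrays with those above. Between siDdb1 and siSox2 0 of 49 passed, where 3.08% of probe sets did, and 3 were higher at the unadjusted threshold (Psma8, Psmb10 and Psme4) and 0 lower, against 9.09% and 9.93% of all genes.

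Promoters were searched because Nfe2l1 and Nfe2l2 bind the antioxidant response element, whose core is TGACNNNGC. Windows from 250 bases before to 50 after the start came from RefSeq on GRCm38.p6 and were found for 41 of the 49 genes. On either strand the core was present in 7 of 41 genes (17.1%) and in 14.0% of 27025 genes. Shown are the surroundings of the match in Psmc6 and Psme4, which had called probe sets. Also shown are those in 4 genes that hold the same core without such a call. Psma1, the remaining gene with a called probe set, held no match in its window. Capitals mark the match, and each sequence is 5′ to 3′ on the gene's strand.
Psmc6, chr14:45329574-45329631, plus strand: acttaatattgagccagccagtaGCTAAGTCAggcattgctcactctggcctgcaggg
Psme4, chr11:30771743-30771802, plus strand: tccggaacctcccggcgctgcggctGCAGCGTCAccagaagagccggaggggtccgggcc
Psmb6, chr11:70525323-70525382, plus strand: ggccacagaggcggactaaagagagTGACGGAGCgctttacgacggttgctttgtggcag
Psmb5, chr14:54618008-54618067, minus strand: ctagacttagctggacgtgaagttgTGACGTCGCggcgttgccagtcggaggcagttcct
Uchl5, chr1:143777219-143777278, plus strand: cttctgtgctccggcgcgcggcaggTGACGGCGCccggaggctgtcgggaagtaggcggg
Psmd9, chr5:123228134-123228193, plus strand: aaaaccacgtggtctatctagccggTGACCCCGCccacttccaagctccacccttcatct
The match lies in the reverse orientation in Psmc6 and Psme4 and in the forward orientation in the other 4 shown. Psmd12, which is not shown, also holds it in the reverse orientation. That gene was at 0.22 in siPsmd14 and did not pass (adjusted p = 0.517).

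Genes holding the TGACNNNGC core were set beside those without it, and the difference was not tested. Among core and 19S genes with a promoter, the 5 with a match had a median of 0.22 in siPsmd14 and the 21 without one 0.38. Psmc6 was at 0.63 and Psmb6 at 0.41, while Psmb5 was at -0.08 and Uchl5 at -0.26, all with a match to this pattern. The GC box GGGCGG was present in 58.5% of the matched members and 38.2% of all genes, and the CCAAT box in 34.1% and 41.1%. The heat shock core GAANNTTC was in 7.32% and 9.04%, and the STAT core TTCNNNGAA in 7.32% and 9.55%. The 5 patterns were searched on both strands and can overlap each other. A match describes the letters of this window alone.

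Genes that act on the proteasome from outside were read from lists set by function. Of 11 proteasome regulators, 10 were measured. In siPsmd14 1 rose, 0 fell and all 10 lay above 0, with a median of 0.37. Ddi1, 1 of the 10, was at 0.12 but read 2.95 to 3.48 over the 8 arrays, below the array medians of 4.78 to 4.85. Over all genes 1.89% passed in siPsmd14 and 47.4% lay above 0. The regulator list had a median of 0.38 in siSox2, with 8 of 10 above 0 (44.8% of all genes) and none past the threshold. In siPsmd14 against siSox2 the median of the list was 0.07. Maff, a small partner protein of Nfe2l1 and Nfe2l2, read 8.24 and 7.08 in siPsmd14, 6.18 and 6.43 in siDdb1, 6.46 and 6.72 in siSox2, and 6.09 and 6.08 in siNonTarget. Both siPsmd14 arrays were above the rest, though more than 1 apart, and Maff rose by 1.58 (SE 0.31, adjusted p = 0.0489). Leaving out any array but siPsmd14 replicate 2 ended this call, with adjusted p between 0.0658 and 0.269, and without siPsmd14 replicate 1 the value was 0.99. It was also lost under 4 other settings, with adjusted p from 0.0513 to 0.0846. Nfe2l1 itself was at 0.11 (adjusted p = 0.802), and Vcp, the ATPase that extracts Nfe2l1 from the membrane, at 0.47 (adjusted p = 0.12).

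Of 17 proteasome-associated and shuttle factors, 16 were measured and 3 rose in siPsmd14, where 1.89% of all genes passed. The list median was 0.11. Ecpas, an adaptor that binds the assembled particle, read 9.18 and 8.66 in siPsmd14, 7.30 and 7.48 in siDdb1, 7.84 and 8.15 in siSox2, and 7.65 and 7.40 in siNonTarget. The siPsmd14 arrays lay above all others, and Ecpas rose by 1.40 (SE 0.19, adjusted p = 0.0146). Against siDdb1 it rose by 1.53 (adjusted p = 0.0166), a call lost without siPsmd14 replicate 1 or any siDdb1 or siNonTarget array (0.0571 to 0.148) and with only the arrays of both groups in the fit (0.118). Against siSox2 it rose by 0.93 (adjusted p = 0.0428), lost without any array but siPsmd14 replicate 2 (0.0598 to 0.197) and with the replicate number as a block (0.0541) or only the arrays of both groups in the fit (0.128). Zfand2a, an arsenite-inducible protein that associates with the 19S cap, read 10.34 and 9.78 in siPsmd14, 9.12 and 8.98 in siDdb1, 9.09 and 9.15 in siSox2, and 8.92 and 8.64 in siNonTarget. It rose by 1.27 (SE 0.19, adjusted p = 0.019).

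Zfand5, a zinc finger protein that binds the proteasome and stimulates it, read 11.47 and 11.32 in siPsmd14, 10.72 and 10.79 in siDdb1, 10.78 and 10.85 in siSox2, and 10.67 and 10.52 in siNonTarget. All 3 genes had both siPsmd14 arrays above the 6 others, and Zfand5 rose by 0.80 (SE 0.13, adjusted p = 0.0233). All 3 calls were lost without siPsmd14 replicate 1 (1.14 for Ecpas, 0.99 for Zfand2a and 0.72 for Zfand5) and without either siNonTarget array (1.52 and 1.27, 1.41 and 1.13, and 0.87 and 0.73 without siNonTarget replicates 1 and 2). The Zfand5 call against siNonTarget was also lost under 2 other settings (adjusted p = 0.0556 and 0.0686). Against siSox2 Zfand2a rose by 0.94 (adjusted p = 0.0371) and Zfand5 by 0.58 (adjusted p = 0.0493), where 4.03% of all genes passed. That Zfand2a call was lost without any 1 of 7 arrays and under 1 other setting. The Zfand5 call against siSox2 was lost without any 1 of the 8 arrays and under 4 other settings. Zfand2b and Zfand6, relatives of these zinc finger genes, were at -0.03 and 0.10. The 4 ubiquitin genes of the list were not analysed here.

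**Figure D5:**
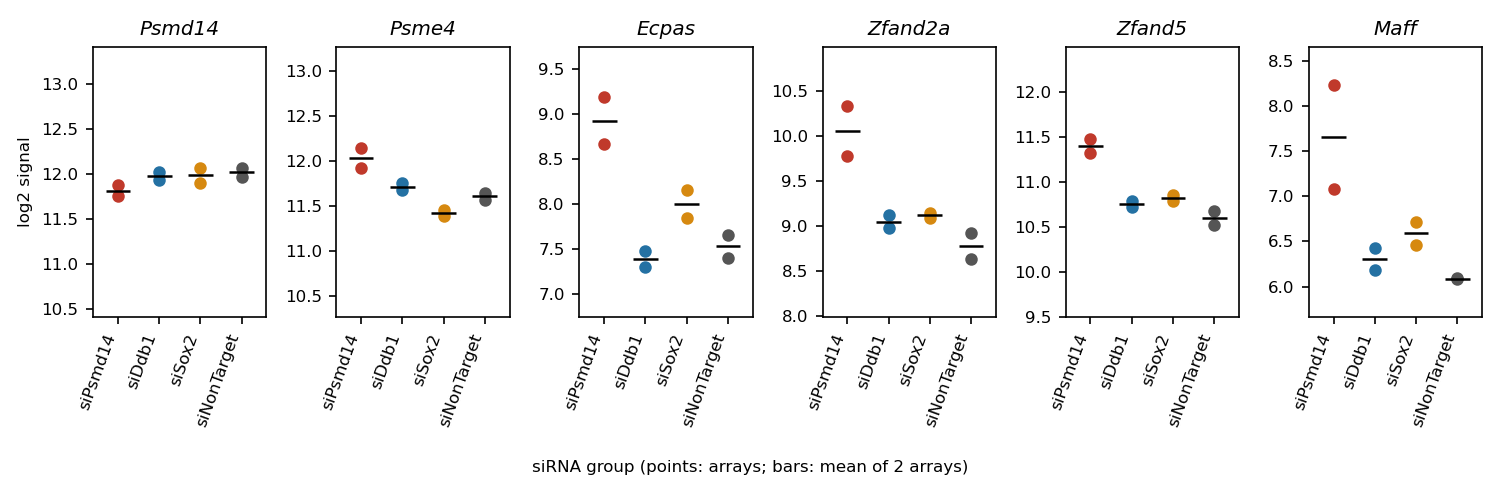
Log2 level of Psmd14, Psme4, Ecpas, Zfand2a, Zfand5 and Maff on each array (points) with the mean of the 2 arrays (bars), by siRNA group; every panel spans 3 log2 units. The siPsmd14 points of Ecpas, Zfand2a, Zfand5 and Maff lie above all other points, and those of Psmd14 lie just below.

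Of 8 antigen presentation and interferon genes, the partners of the immunosubunits, 6 were measured, and 1 rose in siPsmd14, where 1.89% of all genes passed. The list median was 0.68 in siPsmd14, 0.56 in siDdb1 and 0.42 in siSox2. Of the 6 genes, 5, 6 and 4 lay above 0, against 47.4%, 46.8% and 44.8% of all genes. The list median of siPsmd14 was -0.02 against siSox2 and 0.02 against siDdb1. Tap1 was at 1.35 in siPsmd14, 1.46 in siDdb1 and 0.83 in siSox2, without passing (adjusted p = 0.0674, 0.218 and 0.206). Tap2, a subunit of the peptide transporter, read 6.80 and 6.14 in siPsmd14, 5.20 and 5.12 in siDdb1, 5.09 and 4.77 in siSox2, and 5.15 and 5.06 in siNonTarget. The siPsmd14 arrays stood apart, and Tap2 rose by 1.36 (SE 0.21, adjusted p = 0.0213), a call that was lost without siPsmd14 replicate 1 (1.03), siNonTarget replicate 1 (1.41) or siNonTarget replicate 2 (1.32). Tap2 also rose in siPsmd14 against siSox2 by 1.54 (adjusted p = 0.00705) and against siDdb1 by 1.31 (adjusted p = 0.0427). In these comparisons 4.03% and 0.588% of all genes passed. The Tap2 call against siSox2 was lost without 1 of the 8 arrays and under 1 other setting. Its call against siDdb1 was lost without any 1 of 7 arrays and under 3 other settings. B2m, the light chain of class I molecules, read 9.53 and 9.04 in siPsmd14, 8.91 and 8.71 in siDdb1, 9.54 and 10.01 in siSox2, and 8.42 and 8.33 in siNonTarget. It rose in siSox2 by 1.40 (SE 0.20, adjusted p = 0.00901) and was at 0.91 in siPsmd14 (adjusted p = 0.0737). The siSox2 call was lost without siSox2 replicate 2 (1.17) or siNonTarget replicate 1 (1.45) or 2 (1.35). None of the genes on these 3 lists passed in siDdb1 against siNonTarget. In siDdb1 against siSox2, Ngly1, the enzyme that deglycosylates Nfe2l1, fell by 0.97 (adjusted p = 0.0277) and B2m fell by 0.97 (adjusted p = 0.039). The Ngly1 call was lost without any 1 of the siDdb1, siSox2 or siNonTarget arrays, with adjusted p from 0.0637 to 0.197, and the B2m call without any of these but siSox2 replicate 1, from 0.0818 to 0.277. The B2m call was also lost with the replicate number as a block (0.0511) or only the arrays of both groups in the fit (0.0668).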

How the data were processed

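RNA of 8 arrays (4 siRNA groups of 2, grouped by title) was read from the deposited intensity values. Per the submitters' processing notes these came from RMA, with no version stated. RMA usually equalises the distributions of the arrays, so a fold change is read against the average probe set. The deposited scale was linear, and log2 was taken first. The table held 45101 probe sets; 64 controls were left out. Of the 45037 left, 34945 had 1 gene symbol in GEO's platform annotation, 932 several and 9160 none; a gene was read from its single-symbol probe set with the highest mean over the 8 arrays. The 51 genes had 106 probe sets.

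All 8 arrays entered 1 linear model (limma 3.58.1, R 4.3.3, default eBayes), with Benjamini-Hochberg adjustment over all probe sets and a threshold of 0.05; every adjusted p comes from it unless an alternative is named. The prior had 5.02 degrees of freedom of 9.02 in total, and the median SE of the members was 0.149. Precision is limited by the number of arrays. The script was tested on simulated data.

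Genes named were Psmd14, Adrm1, Uchl5, Pomp, the immunosubunits Psmb8 to Psmb10, Psme4, Psmf1, all calls, the 6 smallest p-values of each knockdown, the extremes of each subcomplex in siPsmd14, and genes whose probe sets disagreed in sign with at least 1 of them at an unadjusted p under 0.05; any other gene was named with its value in view. The members and lists were chosen with earlier results of these data known. Alternatives were another prior, a filter on dim probe sets, 2 normalizations, 2 rules for a gene's probe set, the arrays of the compared groups alone, a replicate block and leaving out each array; the count over all probe sets of the members was added after seeing the data. Arrays carried no batch label.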

Additional observations from a re-analysis of the deposited data

How the results depend on the processing

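The precision was limited by 2 arrays a group, and the core and 19S shift in siPsmd14 depended most on siPsmd14 replicate 1. With a mean-dependent robust prior, siPsmd14 gave 1 called gene against siNonTarget, 4 against siSox2 and 1 against siDdb1, the F test gave 4, and siDdb1 had 1 higher and 1 lower gene at the unadjusted threshold. Averaging the probe sets of a gene gave 1, 2 against siSox2, 3 by the F test and 1 lower in siDdb1 at the unadjusted threshold. Adjusting over genes gave 2 against siSox2 and 1 by the F test. The arrays of the compared groups alone gave 0 against siSox2, and 1 higher and 2 lower in siDdb1 at the unadjusted threshold. Quantile normalization gave 1 higher in siDdb1 at that threshold. Without the dimmer 50% of probe sets the immunosubunit median was -0.36, since fewer genes were left, and 2 probe sets of members were called.

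Leaving out 1 array at a time, called genes ranged from 0 to 4 in siPsmd14 against siNonTarget, 0 to 5 against siSox2, 0 to 1 against siDdb1 and 0 to 2 by the F test, the highest each time without siPsmd14 replicate 2. Genes at the unadjusted threshold ranged from 7 to 22 higher and 2 to 6 lower in siPsmd14, 0 to 1 higher and 0 to 2 lower in siDdb1, and 0 to 1 higher and 1 to 5 lower in siSox2. Medians in siPsmd14 ranged from 0.07 to 0.33 over the 49 genes, 0.11 to 0.55 in the core, 0.28 to 0.55 in the base, 0.12 to 0.35 in the lid, -0.32 to -0.05 in the immunosubunits, -0.10 to 0.23 in activators and inhibitors, and -0.35 to 0.08 in chaperones. The 49-gene median ranged from -0.10 to -0.05 in siDdb1, -0.13 to -0.01 in siSox2, 0.15 to 0.45 in siPsmd14 against siSox2 and 0.09 to 0.44 against siDdb1. Called probe sets of members ranged from 0 to 14. Among the single genes for which every alternative was run, signs turned for 6, none of them called; other members were not run one by one. In siPsmd14 Pomp ranged from -0.01 to 0.25, Psmd5 from -0.04 to 0.30 and Psmb8 from -0.07 to 0.17, Psmb9 from -0.57 to 0.19 and Psmf1 from -0.16 to 0.28, and in siSox2 Psma1 ranged from -0.01 to 0.15. The cause was not tested.

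Correlations between groups of the deviations by replicate number were weak and of mixed sign, from -0.217 to 0.242. They do not show whether samples of equal replicate number were paired. With the replicate number as a block, siPsmd14 had 0 called genes, 17 higher and 5 lower at the unadjusted threshold, siSox2 4 lower, siPsmd14 against siSox2 1 called gene, and 2 called probe sets of members against 4.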
